A study of Caenorhabditis elegans with 2 samples.

Results

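ChIP-seq peaks of the transcription factor PHA-2 at small nucleolar RNA (snoRNA) and small nuclear RNA (snRNA) genes of Caenorhabditis elegans are described. A peak was taken where its summit in the pooled list of both replicates lay inside, or within 200 bp of, the body of a gene that the Ensembl annotation of the WBcel235 assembly (ce11), release 115, classes as snoRNA or snRNA. Summits within 200 bp of a tRNA gene were left out, and no cut-off on signal was applied. This gave 213 peaks of the 30000 in the pooled list, 29976 of which are nuclear. Of the 213, 171 lay at snoRNA genes and 42 at snRNA genes, and 2 further summits were left out for a nearby tRNA gene. The animals were whole late embryos of mixed sex, 3 h after synchronisation by bleaching, of the strain OP687, genotype unc-119(tm4063) III; wgIs687. The transgene wgIs687 gives PHA-2 with GFP and FLAG at its C terminus, and the chromatin, sheared by sonication, was immunoprecipitated through its GFP. There were 2 biological replicates of this 1 group, called against 1 shared control that was not analysed here. Values therefore come from a tagged transgene product in a mixture of all embryonic cell types, with no untagged strain analysed here.

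PHA-2 is a homeobox factor known for its part in forming the isthmus of the worm pharynx. Most snoRNAs guide chemical changes of ribosomal and other RNAs, the C/D type methylation and the H/ACA type pseudouridylation, while snRNAs are the RNA cores of the spliceosome and of the particles that supply spliced leaders in trans-splicing. In C. elegans many snoRNA genes lie in introns of host genes and others have promoters of their own, some of them with elements like the A box and B box of tRNA genes, which recruit RNA polymerase III. Most snRNA genes carry a proximal sequence element upstream of the start, bound by the snRNA activating complex.

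The upstream sequences of strong snoRNA peaks are shown first because the results return to the letter patterns in them. They were picked by the patterns they hold or lack, so their make-up is not that of all strong peaks: of the 10 strongest snoRNA peaks 4 lie at genes with both box patterns, 2 at genes with 1 box, 1 at a gene with the proximal element letters and 3 at genes with none. Each run is the 100 bp before the annotated 5′ end on the strand of the gene, from the ce11 reference, and the capitals mark TGGCNNAG (called A box letters here), GTTCNANNC (B box letters) or AACCC and, 7 bases on, GTC (proximal element letters). These 3 patterns were chosen after the upstream sequences of strongly bound genes had been read and other spellings tried, so they describe these genes and are no independent support. A pattern was counted only where all of it lay before the 5′ end. The first 6 genes hold the A box and B box letters, and T06C12.16 holds only the A box letters in full. Its run ends in letters that begin a B box pattern, which would pass the 5′ end and was not counted. ZK994.7 holds the proximal element letters, and C51F7.4 and H09I01.2 hold none. C51F7.3 lies just downstream of C51F7.4 under the same peak and has B box letters at 2 places. The intervals are chrV:19643188-19643287 (minus strand) for Y43F8C.22, chrII:11960798-11960897 (plus strand) for W03C9.9, chrV:11782892-11782991 (plus strand) for F55A11.10, chrV:11314158-11314257 (plus strand) for T03F7.8, chrIV:7574022-7574121 (plus strand) for F32E10.10, chrII:5105232-5105331 (minus strand) for C04G6.12, chrV:15873927-15874026 (minus strand) for T06C12.16, chrV:8500479-8500578 (plus strand) for ZK994.7, chrV:12303499-12303598 (plus strand) for C51F7.4, chrIV:8252994-8253093 (plus strand) for H09I01.2 and chrV:12303608-12303707 (plus strand) for C51F7.3.
Y43F8C.22: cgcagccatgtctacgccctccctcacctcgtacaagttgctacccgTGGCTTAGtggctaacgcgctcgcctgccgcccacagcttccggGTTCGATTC
W03C9.9: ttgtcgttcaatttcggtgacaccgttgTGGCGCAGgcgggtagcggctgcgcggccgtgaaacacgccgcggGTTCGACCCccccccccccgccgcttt
F55A11.10: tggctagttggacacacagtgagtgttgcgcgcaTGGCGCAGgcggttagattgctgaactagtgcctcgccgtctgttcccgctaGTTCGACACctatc
T03F7.8: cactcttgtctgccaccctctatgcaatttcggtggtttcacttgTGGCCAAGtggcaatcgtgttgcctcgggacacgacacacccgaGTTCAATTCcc
F32E10.10: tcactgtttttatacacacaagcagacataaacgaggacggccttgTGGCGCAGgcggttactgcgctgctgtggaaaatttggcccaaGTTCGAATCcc
C04G6.12: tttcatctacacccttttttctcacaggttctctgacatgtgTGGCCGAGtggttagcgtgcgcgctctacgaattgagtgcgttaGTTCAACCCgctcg
T06C12.16: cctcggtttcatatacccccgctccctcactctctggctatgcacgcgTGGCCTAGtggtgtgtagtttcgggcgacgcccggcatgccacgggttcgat
ZK994.7: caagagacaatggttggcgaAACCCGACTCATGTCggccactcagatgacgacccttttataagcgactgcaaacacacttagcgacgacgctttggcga
C51F7.4: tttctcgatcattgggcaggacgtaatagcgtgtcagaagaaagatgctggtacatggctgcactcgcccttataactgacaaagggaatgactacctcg
H09I01.2: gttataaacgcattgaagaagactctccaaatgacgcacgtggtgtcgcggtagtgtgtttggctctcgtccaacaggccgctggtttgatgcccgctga
C51F7.3: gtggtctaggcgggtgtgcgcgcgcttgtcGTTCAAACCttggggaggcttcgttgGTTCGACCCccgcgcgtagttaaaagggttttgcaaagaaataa

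For the snRNA genes the same stretch is shown for 5 genes with peaks in the optimal list, because their upstream letters differ from those of most snoRNA genes. W05B2.8, F54D8.7 and C28A5.7 belong to one family of nearly alike snRNA genes and hold the proximal element letters, as does sup-6, while sls-2.1, a spliced leader 2 gene, holds none of the 3 patterns. The make-up of these 5 is not that of all such genes: 6 of the 11 snRNA genes with a summit of the optimal list hold the proximal element letters. R07E5.16, of the family of W05B2.8, and sls-2.2 lack them. In the whole families, 7 of the 23 genes with W05B2.8 and 9 of the 15 with sls-2.1 hold them. The intervals are chrIII:10989579-10989678 (plus strand) for W05B2.8, chrIII:5080899-5080998 (minus strand) for F54D8.7, chrIII:4426956-4427055 (minus strand) for C28A5.7, chrII:12944968-12945067 (minus strand) for sup-6 and chrII:5844765-5844864 (plus strand) for sls-2.1.
W05B2.8: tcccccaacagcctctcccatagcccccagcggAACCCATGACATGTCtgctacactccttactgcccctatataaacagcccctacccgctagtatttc
F54D8.7: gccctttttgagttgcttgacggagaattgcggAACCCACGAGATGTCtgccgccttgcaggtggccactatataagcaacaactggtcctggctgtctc
C28A5.7: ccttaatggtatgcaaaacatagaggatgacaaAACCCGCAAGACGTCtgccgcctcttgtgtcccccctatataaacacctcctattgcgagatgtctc
sup-6: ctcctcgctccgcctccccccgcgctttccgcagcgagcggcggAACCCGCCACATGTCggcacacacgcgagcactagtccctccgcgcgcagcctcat
sls-2.1: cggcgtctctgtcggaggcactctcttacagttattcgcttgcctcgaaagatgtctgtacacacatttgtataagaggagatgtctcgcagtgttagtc

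Peaks at snoRNA and snRNA genes stood high in the ranked list. In the optimal list, which the authors' IDR procedure kept and which holds the 878 strongest peaks of the pooled list, were 69 of the 213 peaks (32.4%, exact 95% interval 26.2 to 39.1), where the background over all nuclear peaks was 2.86%. By subclass, 57 of 171 snoRNA peaks (33.3%, 26.3 to 40.9) and 12 of 42 snRNA peaks (28.6%, 15.7 to 44.6) were in the optimal list, beside 36.4% of the 415 nuclear tRNA peaks. Among nuclear peaks near none of these classes the share was 2.17%, or 636 of 29348. Intervals cover the counted peaks only, the read depth behind the lists is unknown, and no test was made because the peaks share the same 2 libraries.

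The median pooled signal, the peak caller's enrichment value as deposited, was 67.1 for snoRNA peaks (95% interval of the median 58.8 to 89.7) and 58.1 for snRNA peaks (45.1 to 87.6). It was 96.0 for tRNA peaks and 46.8 for all nuclear peaks. Within the optimal list the order changed: snoRNA peaks had a median of 340 (240 to 376) and snRNA peaks 190 (150.8 to 273), against 203 for tRNA peaks and 158 for all nuclear peaks kept there. The snoRNA peaks thus held a strong upper part and a weak lower part, and 6 of the 10 strongest nuclear peaks were at snoRNA genes and 0 at tRNA genes. Of the 100 strongest, 30 were at snoRNA genes, 2 at snRNA genes and 34 at tRNA genes.

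**Figure D1:**
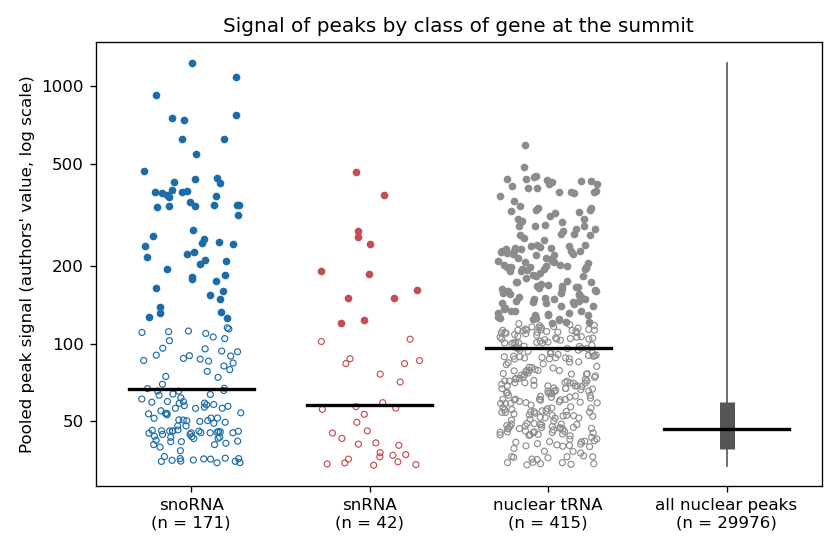
Pooled peak signal on a log scale for snoRNA, snRNA and nuclear tRNA peaks, 1 point per peak, filled where the peak is in the optimal list, and for all nuclear peaks as range (thin line) and quartiles (thick bar). Black lines are medians, 67.1, 58.1, 96.0 and 46.8 from left to right, and the highest points, up to 1237, belong to snoRNA genes.

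The strongest peak lay at Y43F8C.22 (chrV:19643016-19643442), whose signal reached 1237 after pooling, 609 in replicate 1 and 633 in replicate 2. W03C9.9 (chrII:11960630-11961025) had 1089, 557 and 533 in these 3 lists. The peak at C51F7.4 (chrV:12303458-12303829) had 927, 464 and 463, and its summit lay inside C51F7.4, 39 bp after the 5′ end, and upstream of the next gene, C51F7.3. The values of the 2 replicates lay close together in these 3 peaks, which stood among the 16 strongest of all peaks in each replicate, mitochondrial ones included.

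ZK265.10 on chromosome I followed with a pooled value of 776, and 396 and 380 in replicates 1 and 2. F55A11.10 had 752, 376 and 386, and T06C12.16 had 738, 389 and 348. The other 9 of the 15 strongest snoRNA peaks lay at ZK994.7, T03F7.8, T02E1.9, H09I01.2, B0334.12, F32E10.10, C04G6.12, T19B4.8 and ZK484.9, with pooled signals between 397 and 625. All 15 were in the optimal list and among the 878 strongest peaks of each replicate, and 13 of the 15 had the summit upstream of the gene.

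Across the replicates the peaks in the optimal list had a similar order. All 69 had a peak summit of both replicates within the pooled interval, with median signals of 157 in replicate 1 and 130 in replicate 2, against 87.1 and 79.4 for all nuclear peaks of the optimal list. Over all 213, 143 (67.1%, 60.4 to 73.4) had a summit of both replicates, 58 of 1 replicate and 12 of neither, beside a background of 35.8% for both. A summit among the 878 strongest peaks of both replicates was held by 72 of the 213 (33.8%), where the background was 2.33%. Of the 69 in the optimal list 61 were among the 878 strongest of both replicates, and 8 were not. Signals in replicate 1 and replicate 2 had a Spearman rho of 0.91 over the 69 peaks of the optimal list and 0.84 over the 143, against 0.46 over 10725 nuclear peaks. Of these 10725, 9873 were outside the optimal list, and rho over all its nuclear peaks is not given here. The values thus do not show closer agreement at the members, and they are descriptions over peaks that share both libraries. The pooled list holds the reads of both replicates, and 46 peaks in replicate 1 and 56 in replicate 2 were matched to the same replicate peak as a neighbouring member, so the lists are not independent.

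**Figure D2:**
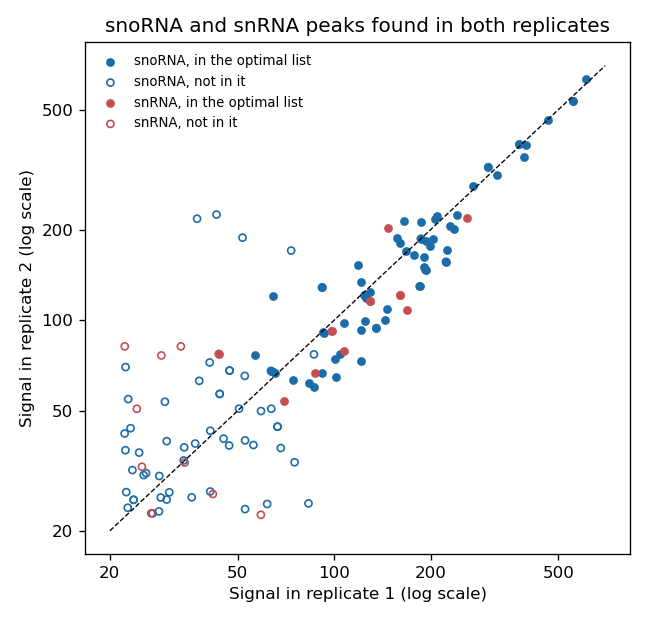
Signal in replicate 1 (x axis) and replicate 2 (y axis), both on log scales, of the 143 snoRNA and snRNA peaks with a summit of both replicates, filled where the peak is in the optimal list. The dashed line marks equal signal; the filled points lie along it, while open points scatter and some share the replicate peak of a stronger neighbour.

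The replicates also placed the snoRNA summits close together. In the optimal list the summits of replicate 1 and replicate 2 were a median of 16 bp apart at snoRNA genes and 38.5 bp at snRNA genes, against 29 bp at tRNA genes and 29 bp over all nuclear peaks kept there. At snoRNA genes 30 of 57 pairs (52.6%) lay within 20 bp, against 40.3% of all. Of 80 nuclear peaks narrower than the common width of 456 bp, all of them in the optimal list, 23 were at snoRNA genes, 2 at snRNA genes and 27 at tRNA genes. Narrow peaks were 40.4% of snoRNA peaks of the optimal list and 9.35% of all nuclear peaks there. Replicate summits were taken only from within the pooled interval, so a narrow interval limits the gap. At sls-2.1, sup-6 and F55A11.10 the 2 peaks of the optimal list were matched to the same replicate summits, so each of these gaps was counted 2 times. The part of width in these gaps was not tested.

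Strong snoRNA peaks lay just upstream of the gene. Of the 57 in the optimal list, 50 had the summit upstream of the 5′ end (87.7%, 76.3 to 94.9), 5 inside and 2 downstream. The median position was −37 bp (−44 to −28), and 41 of the 57 lay between −60 and −10 bp, a band chosen after the positions had been seen. The 114 snoRNA peaks outside the optimal list were spread over the whole reach, with 52 upstream, 22 inside and 40 downstream, a median of +28 bp and 11 in that band. Of these, 16 lay within 250 bp of a stronger summit of the optimal list, 12 of them downstream of the gene, close to the smallest spacing of neighbouring summits in the pooled list, 199 bp. The other 98 had 50 upstream, 20 inside and 28 downstream, with a median of −8.5 bp, so the place of these neighbours moved that median. At tRNA genes in the optimal list, by contrast, 28 summits lay upstream, 97 inside and 26 downstream of the gene, with a median of +31 bp.

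The position changed with signal in the same way inside the snoRNA group. Of the 20 strongest snoRNA peaks 18 were upstream, and of the other 37 in the optimal list 32 were, at medians of −38 and −37 bp. Of the 57 next by signal 28 were upstream, and of the last 57, which had signals of 34.5 to 51.5, 24 were. For 55 of the 57 snoRNA peaks in the optimal list the 5′ end of the snoRNA gene was nearer to the summit than that of any protein-coding gene, and this held for 161 of all 171. For the others a protein-coding start was nearer. Members were taken within 200 bp of a small RNA gene body, so this nearness is largely built in by the rule. It held for 106 of the 114 snoRNA peaks outside the optimal list as well.

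**Figure D3:**
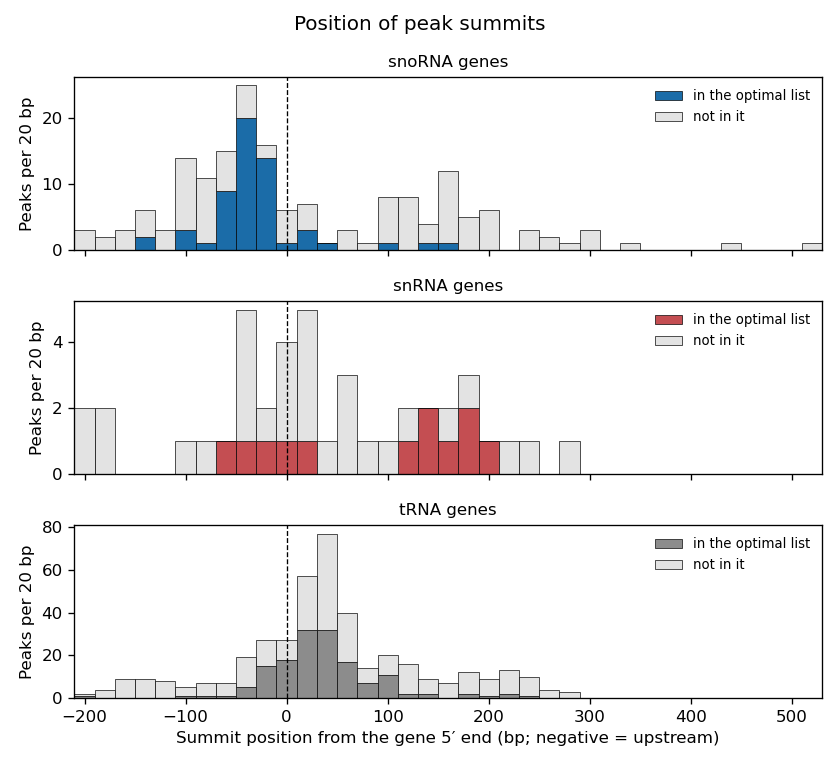
Number of peak summits per 20 bp by distance from the gene 5′ end (bp, negative is upstream), for snoRNA, snRNA and tRNA genes from top to bottom, coloured where the peak is in the optimal list and pale grey where it is not. Coloured snoRNA summits pile up upstream, with a median of −37 bp, snRNA summits fall on both sides of the gene, and most tRNA summits of the optimal list lie inside it.

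The A box and B box letters were more frequent upstream of snoRNA genes with a summit of the optimal list than of the others. In the 120 bp upstream of the gene and on its strand, A box letters stood at 19 of the 57 snoRNA genes with a summit of the optimal list within 200 bp, B box letters at 23, either at 30 (52.6%) and both at 12. Of the 85 snoRNA genes reached only by weaker peaks, 11 held either and 0 both, and of the 204 with no summit, 12 held either and 1 both. Among 19973 nuclear protein-coding genes 2.58% held either pattern and 3 genes held both. In tRNA genes, where the boxes are internal, 95.9% of the 612 bodies held the B box letters and 17.6% the A box letters, so the B box spelling covers nearly all tRNA genes and the A box spelling few. A match is a description of letters and not of a bound site, and the patterns were chosen after sequences of strongly bound genes had been read.

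The letters sat at set distances. In the snoRNA genes of the optimal list the A box letters started between −72 and −52 bp, with a median of −59. The B box letters started between −44 and −9 bp, with a median of −14. Only patterns that end before the 5′ end were counted, so −9 bp is the last B box start possible. Over the 13 summits at genes with both, the starts were 44 bp apart in the median (43 to 52), and 11 of the 13 summits lay in the stretch from the A box to the B box letters. In tRNA genes of the optimal list the B box letters started at +51 bp in the median. The summits lay 18 bp before the B box start at snoRNA genes and 20 bp before it at tRNA genes, as medians over 23 and 144 summits. Quartiles of this distance were −34.5 and −6.5 bp at snoRNA genes and −48 and +7 bp at tRNA genes, so the single summits spread widely around similar medians. Some snoRNA peaks of the optimal list had a nearest gene with neither box pattern. All of these but C51F7.4, B0334.12 and R07G3.16 also had the summit upstream, as at ZK265.10 (−58 bp) and Y23H5B.10 (−47 bp). An upstream summit was thus not particular to genes with the letters.

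**Figure D4:**
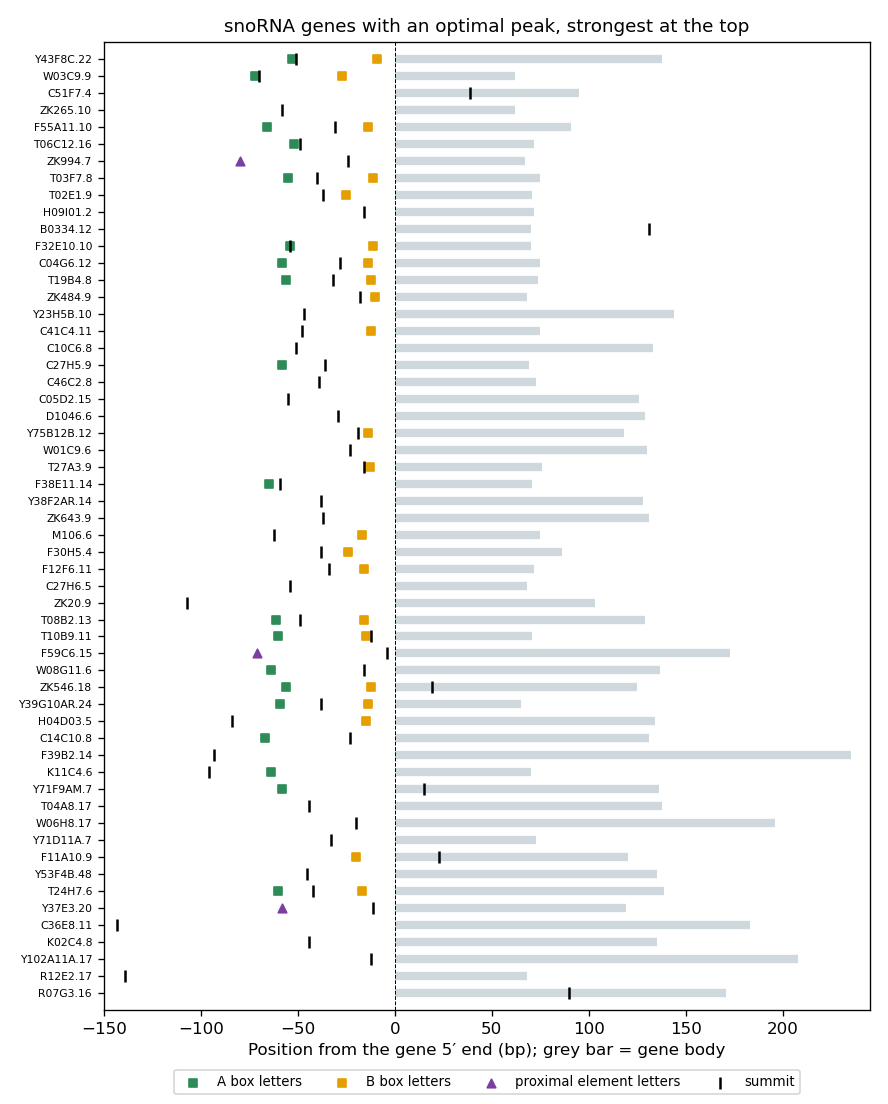
Layout of the snoRNA genes nearest to a peak of the optimal list, 1 row per gene, strongest at the top, with position from the 5′ end in bp; the grey bar is the gene body, squares and triangles mark where the letter patterns start, and the black tick is the pooled summit. Squares line up in 2 columns upstream of the gene and most ticks fall between or near them.

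Counted by genes, most snoRNA genes with A box or B box letters had a summit of the optimal list. The patterns were chosen after sequences of strongly bound genes had been read. High shares among matching genes are therefore partly built in and are no independent support. Of 346 nuclear snoRNA genes 142 (41.0%) had a pooled summit within 200 bp and 57 (16.5%, 12.7 to 20.8) one of the optimal list, where the background over 46890 nuclear genes of any kind was 29.6% and 2.28%. This background was not matched for gene length, and the snoRNA genes had a median length of 130 bp. With A box and B box letters 12 of 13 genes had a summit of the optimal list (92.3%, 64.0 to 99.8), with either 30 of 53 (56.6%, 42.3 to 70.2) and with neither 27 of 293 (9.22%, 6.16 to 13.1). The strongest peak at a reached gene had a median signal of 423 with both patterns, 247 with either and 63.2 with neither. The proximal element letters stood at 27 snoRNA genes, of which 3 (11.1%, 2.35 to 29.2) had a summit of the optimal list: ZK994.7, F59C6.15 and Y37E3.20.

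Genes inside and outside host genes were both bound. Of 183 snoRNA genes inside a protein-coding gene on the same strand 24 (13.1%, 8.59 to 18.9) had a summit of the optimal list, of 33 on the other strand 7 (21.2%, 8.98 to 38.9), and of 130 outside any protein-coding gene 26 (interval 13.5 to 27.9%). By letters in the gene body, 5 of 15 C/D genes (33.3%), 20 of 91 H/ACA genes (22.0%) and 32 of 240 genes that met neither rule (13.3%) had one. These intervals overlap, and the letter rule leaves most genes unclassed. On the X chromosome 1 of 33 snoRNA genes had a summit of the optimal list, with 11 of them reached by any pooled summit.

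**Figure D5:**
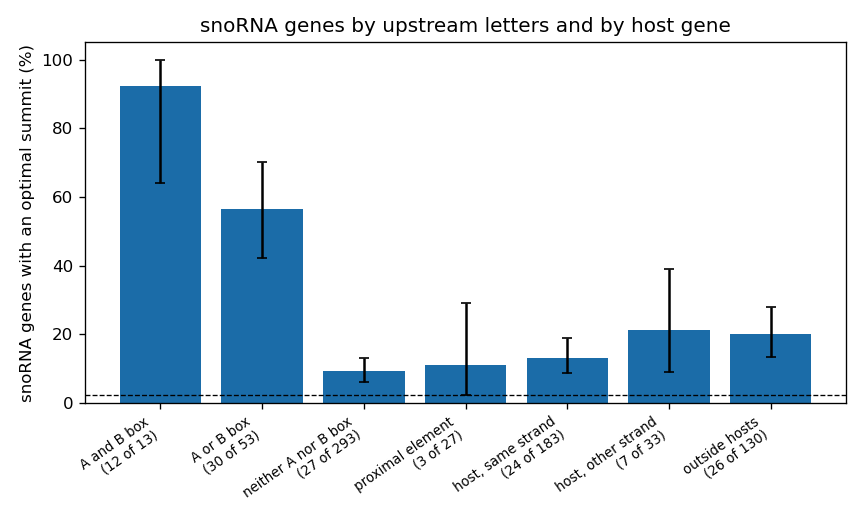
Share of snoRNA genes with a summit of the optimal list within 200 bp (y axis, percent), by letters upstream and by place relative to protein-coding host genes, with exact 95% intervals and gene counts under each bar. The dashed line is the 2.28% over all nuclear genes, not matched for length. The bar for genes with both box patterns stands highest at 92.3%, and the patterns were chosen after sequences of strongly bound genes had been read.

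The strong snRNA peaks lay upstream less often than the strong snoRNA peaks. Of the 12 in the optimal list 3 had the summit upstream, 3 inside and 6 downstream. Their median was +133 bp, with a wide interval of −25 to +170 bp, and sls-2.1 and sup-6 each gave 2 of these summits. Of the other 30, 13 were upstream, 14 inside and 3 downstream. Among the 878 strongest peaks of each replicate, 4 of 13 snRNA summits were upstream in replicate 1 and 5 of 14 in replicate 2. For snoRNA summits these were 46 of 59 and 52 of 64. The snRNA medians there were +118 and +29 bp, so the replicates did not share 1 typical snRNA position. The proximal element letters stood in the 120 bp upstream at 6 of the 11 snRNA genes with a summit of the optimal list, at 10 of the 25 reached by weaker peaks and at 22 of the 93 with none, against 14 of 19973 protein-coding genes (0.0701%). The 11 include mir-1831, which shares a peak with sup-39. A box letters stood at 0 of the 129 snRNA genes and B box letters at 3. The proximal element letters were thus found at snRNA genes with and without a peak, and 16 of the 38 genes that hold them (42.1%, 26.3 to 59.2) were reached. Of all 129 snRNA genes 36 (27.9%, 20.4 to 36.5) were reached, near the background of 29.6% over all nuclear genes, and 11 (8.53%, 4.33 to 14.7) had a summit of the optimal list, where the background was 2.28%. That background counts gene bodies of any length, whereas snRNA genes had a median length of 109 bp. A longer body has more room for a summit, and length was not matched. Being reached by any pooled summit is thus not read as a result about snRNA genes in either direction. Those with a summit of the optimal list were 6 of 37 genes inside a host gene on the same strand, 0 of 26 on the other strand and 5 of 66 outside.

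The strongest snRNA peak was at W05B2.8 (chrIII:10989682-10989841), at 467 after pooling, 260 in replicate 1 and 218 in replicate 2. Its pooled summit lay at +118 bp, as did that of replicate 1, whereas that of replicate 2 lay at +12 bp. W05B2.8 belongs to a family of 23 snRNA genes with a median length of 102 bp, grouped at 80% identity or more. Of these, 8 were reached and 4 were in the optimal list, where the background over all nuclear genes, not matched for length, was 29.6% and 2.28%. The other 3 were F54D8.7 with 192, 98.5 and 91.8, C28A5.7 with 187, 108 and 79.0, and R07E5.16 with 150.8, 86.9 and 67.0, each time in the order pooled, replicate 1, replicate 2. In 17 of the 23 the body is identical to that of another gene, and the part that reads from identical copies had in these values was not tested.

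Among the spliced leader 2 genes, whose RNAs are spliced onto the downstream messages of operons, 3 had peaks of the optimal list. The peak at sls-2.4 reached 378 after pooling, 148 in replicate 1 and 202 in replicate 2, with the summit at +170 bp. The 2 peaks at sls-2.1 had pooled signals of 273 and 151.3, at −25 and +175 bp, and the 1 replicate peak matched to both had 161 in replicate 1 and 121 in replicate 2. The peak at sls-2.2 had 261, 169 and 108, at +158 bp. The family of 15 genes, none with a body identical to another, had 7 reached, beside a background of 29.6% over all nuclear genes, not matched for length. The 10 sls-1 genes of the largest spliced leader 1 family, all with identical bodies, had 0 reached. The part that identical copies had in this difference was not tested. A family of 19 snRNA genes with a median length of 187 bp had 4 reached, and a family of 6 smy genes, whose SmY RNAs bind Sm proteins, had 2, with none of either in the optimal list.

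The sup-6 and sup-39 genes, known as suppressor loci that encode U1 snRNA, the RNA that pairs with the 5′ splice site, stand in a family of 13 genes with a median length of 165 bp. Of these, 7 were reached, beside 29.6% of all nuclear genes, not matched for length. At sup-6 the 2 peaks had pooled signals of 244 at +148 bp and 163 at −52 bp, and were matched to the same replicate peaks of 129 and 116. At sup-39 the summit at +198 bp, also within reach of mir-1831, an snRNA gene by its annotated class, had 120 after pooling, 43.7 in replicate 1 and 77.3 in replicate 2. F38E11.10, from a family of 12 genes with a median length of 122 bp, had 124, 69.9 and 54.1, at −32 bp. The 2 summits at sls-2.1 and at sup-6 are close to the smallest spacing of 199 bp given above, so a pair of summits at 1 short gene need not stand for 2 separate signals.

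Signals passed through the edge of the optimal list without a gap. The weakest snoRNA peak inside it, at R07G3.16, had 126, and the strongest outside, at T26A8.6, had 116. For snRNA genes these were sup-39 with 120 and sls-2.8 with 104, the second with 28.9 in replicate 1 and 76.4 in replicate 2. The 5 peaks of the optimal list whose ranks differed most between replicates were at sup-39, K02C4.8, K11C4.6, F38E11.10 and Y37E3.20. K11C4.6 had 64.6 in replicate 1 and 120 in replicate 2, K02C4.8 had 56.6 and 76.5, and Y37E3.20 had 86.8 and 59.9, so each leaned to 1 replicate while staying in both lists. T26A8.6 and sls-2.8, outside the optimal list, were each among the 878 strongest peaks of 1 replicate.

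The share in the optimal list differed with distance from the gene body and was highest just outside it. Of the 76 summits 1 to 50 bp outside a gene body 41 were in the optimal list, of the 44 inside a body 8, of the 53 at 51 to 100 bp 17, of the 23 beyond that and up to 150 bp 3 and of the 17 farther out, up to 200 bp, 0. Beyond the reach, 5 of 37 summits up to 300 bp, 2 of 31 up to 400 bp and 2 of 19 up to 500 bp were in the optimal list, so it also holds peaks just outside the limit. The last summits inside the limit, at ZK546.18, F36A4.23 and F48A9.6, had pooled signals of 63.9, 49.6 and 48.1 at 197, 198 and 200 bp from the body. The first outside, at F59C6.15, ZK897.2 and C18A3.12, had 137, 62.9 and 46.7 at 210, 211 and 213 bp, and that at F59C6.15 was in the optimal list. The 2 summits left out for a tRNA gene, at sls-2.9 and C16D9.10, had 94.5 and 52.8, and neither was in the optimal list.

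A list of 12 motifs was searched on both strands in the 75 bp to each side of the summit. The homeodomain core TAATTG was in 7.04% of the member windows against 11.0% of all nuclear windows, and the core TTAATT in 16.0% against 23.0%, so neither was more frequent at the members. GGTTCGA, a spelling of the tRNA B box that overlaps the B box letters above, was in 5.16% of member windows and 15.8% of snoRNA windows of the optimal list, against 1.84% of all nuclear windows and 11.2% of those in the optimal list. TATAAA was in 16.9% against 16.4%, TGATGA in 12.7% against 9.38%, GAGAGA in 16.9% against 11.0% and CCGCCC in 7.98% against 4.81%. TGTTTGC was in 5.16% against 3.64%, TGTTTAC in 0.939% against 1.76%, CACGTG in 3.29% against 2.59%, TGACGT in 1.41% against 4.15% and AGATAA in 7.51% against 7.29%.

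Within the optimal list, which holds a larger part of the members than of all peaks, several of these comparisons differed. GAGAGA was in 18.8% of member windows against 25.7% of all nuclear windows of that list, and CCGCCC in 10.1% against 11.2%, so both turned to lower at the members. TATAAA was in 18.8% against 9.35%, TGATGA in 14.5% against 8.06%, TGTTTGC in 11.6% against 7.83% and GGTTCGA in 13.0% against 11.2%. TAATTG was in 4.35% against 5.61%, TTAATT in 10.1% against 12.1%, TGTTTAC in 1.45% against 2.80%, CACGTG in 2.90% against 2.69%, TGACGT in 1.45% against 4.56% and AGATAA in 1.45% against 3.50%. No motif was tested.

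Among all words of 6 letters, ranked by how much more often the member windows held them than all nuclear windows, AACCCG came first, in 17.8% against 3.75%. It overlaps the proximal element letters and, read on the other strand, tRNA B boxes. CCGCCG (15.02% against 4.49%), CGCCGC (14.6% against 4.32%), GCACAC (16.0% against 5.83%) and GAGACA (16.0% against 6.27%) followed. Within the optimal list AACCCG was in 26.1% of member windows against 9.35% of all nuclear windows, CCGCCG in 17.4% against 11.7%, CGCCGC in 18.8% against 13.7%, GCACAC in 17.4% against 16.0% and GAGACA in 21.7% against 15.7%.

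Genes for the proteins of these particles were bound in small numbers, at shares at or above that of all protein-coding genes. With summits counted up to 1000 bp before and 500 bp after the 5′ end, 1 of 10 genes for snoRNP proteins and their assembly (10%) had a summit of the optimal list, 2 of 34 snRNP and splicing genes (5.88%), and 1 of 27 genes for snRNA transcription and processing and RNA polymerase III (3.70%), where the background was 2.74% of protein-coding genes. With the 5000 strongest pooled peaks the 3 shares were 50%, 26.5% and 22.2%, against 11.2%. The genes with a summit of the optimal list included fib-1, which encodes fibrillarin, the methyltransferase of C/D snoRNPs. Its pooled signal was 160 at −177 bp, with 60.04 in replicate 2 but no summit of replicate 1 in the interval. The others were snr-1, an Sm protein gene, with 431, 219 and 211 at −476 bp, prp-8, a core factor of the spliceosome, with 126, 74.2 and 47.7 at −335 bp, and ints-8, an Integrator subunit gene, with 158, 86.4 and 69.4 at −105 bp. With counts this small the shares in the optimal list are known only within wide limits, such as 0.253 to 44.5% for the first gene list. All 3 of these intervals hold the background of 2.74%. With the 5000 strongest peaks the intervals were 18.7 to 81.3%, 12.9 to 44.4% and 8.62 to 42.3%. There the third held the background of 11.2% and the others lay above it.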

How the data were processed

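PHA-2 ChIP-seq of 2 biological replicates of 1 group was analysed from the authors' ce11 peak lists, 1 relaxed list per replicate (23371 and 24336 peaks), 1 of the pooled replicates (30000) and the optimal list (878). The authors deposited for each peak a signal value, used here to rank and describe peaks, and a −log10 q-value, which was not used to choose any. The deposited lists name no aligner and no peak caller (not given in the sources used here), and read depth is unknown. The ce10 lists were not used here. All list ends fell inside the WBcel235 chromosomes.

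Peaks were joined to the Ensembl release 115 annotation by summit, each to the small RNA gene with the nearest body, and a replicate's value is that of its strongest peak with a summit in the pooled interval. Symbols were matched to RefSeq by WormBase identifier, and RefSeq pseudogenic tRNAs were not used as tRNA genes (4 members lie within 200 bp of one). Shares have exact Clopper-Pearson and medians order-statistic 95% intervals. Named were the 15 snoRNA and 10 snRNA peaks of highest signal, every snRNA peak of the optimal list, the 5 with the largest rank gap between replicates, the peaks next to the threshold, and bound genes of the protein lists. C/D genes were those with TGATGA starting in the first 20 bases and CTGA in the last 15, H/ACA genes others with ACA starting in the last 8. The members and lists were chosen with earlier results of these data known. Steps were tested on planted summits. Python 3.11.15, pandas 2.3.3, numpy 2.4.6, scipy 1.17.1, edlib 1.3.9.post1 and matplotlib 3.10.9 were used.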

Additional observations from a re-analysis of the deposited data

How the results depend on the processing

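Taking only summits inside a gene body left 44 peaks, of which 18.2% were in the optimal list and 47.7% in both replicates, with a median signal of 58.04 and 9.47% of genes reached. The share upstream was 0%, which this setting fixes in advance. With a reach of 100 bp 32.0% of genes were reached, and with 500 bp 50.9%, with 26% of peaks in the optimal list and 89.7% nearer to the small RNA than to a protein-coding start. The last share is largely built in, because members are taken by nearness to a small RNA gene. With the 5000 strongest pooled peaks in place of the optimal list the share was 48.8%, and 50%, 26.5% and 22.2% of the 3 protein gene lists were bound, against 11.2% of protein-coding genes. Replicate summits within 50 bp of the pooled one were found in both lists for 43.2% of peaks. Among the strongest peaks only, this was 33.8% without the 50 bp limit, beside 2.33% of all nuclear peaks. Shares over all nuclear peaks for the 50 bp limit, and over all genes for the changed reaches, are not given here.

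With 1 replicate list alone the members numbered 178 to 192. Of these, 37.5 to 43.8% were among the 878 strongest of that list, beside 3.52 to 3.66% of all nuclear peaks. Upstream were 52.8 to 54.2%, and 95.3 to 95.5% were nearer to the small RNA start, which the rule for members largely builds in. The median signal was 43.5 to 48.5, and 31.8 to 34.1% of genes were reached. Single replicates have lower signal values than the pooled list. Of 66 single-replicate ranks of 33 named peaks 58 stayed on the same side of rank 878. The ranks past it were those of F38E11.10 (1400), Y37E3.20 (1011) and R07G3.16 (910) in replicate 2 and of sup-39 (3201), K02C4.8 (1406) and K11C4.6 (946) in replicate 1, while T26A8.6 (641 in replicate 1) and sls-2.8 (496 in replicate 2), outside the optimal list, ranked above it. Of 24 motif shares in narrower or wider windows 14 moved beyond their interval.

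Chosen after seeing the data were joining each summit to the nearest 5′ end (55.4% upstream, as with the nearest body), leaving out weaker summits within 250 bp of a member in the optimal list (58.5% upstream), leaving out members near a pseudogenic tRNA (32.1% in the optimal list), and reading B box letters as GTTCNA (52.6% of the bound snoRNA genes in place of 40.4%, but also 10.8% in place of 1.96% of snoRNA genes with no peak and 11.8% in place of 1.68% of protein-coding genes) or in 60 and 200 bp windows (40.4% in each). No paired analysis was possible because there is 1 group. Depth, the control and identical gene copies limit the values and were not analysed here.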

Other observations

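By chromosome, the 69 peaks of the optimal list at snoRNA and snRNA genes were 10 to 20 on each autosome and 1 on X, whereas all 856 nuclear peaks of that list were 111 to 155 on each autosome and 184 on X. The X chromosome thus held the most nuclear peaks of the optimal list and the fewest at these genes, with 36 of the 475 snoRNA and snRNA genes lying there. More than 1 peak was found at 30 of 141 snoRNA genes and at 8 of 34 snRNA genes nearest to a member, and 1 snoRNA gene and 2 snRNA genes had 2 peaks in the optimal list.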
